A study of Mus musculus with 4 samples.

Results

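Plasma cells were described in the 2 single-cell libraries of the type H gate. A cell was taken as a plasma cell where transcripts of Jchain, the joining chain of secreted IgA and IgM, made up at least 2% of its unique molecular identifiers (UMIs, the tags that mark single captured transcripts). Members were thus chosen by a measured value, the Jchain share, after a filter on genes and mitochondrial UMIs per cell. The rule gave 269 cells among the 3567 cells of the whole series. Of these, 161 came from the library labelled knockout and 108 from the library labelled control.

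The study sorted bone vessel cells of mice by flow cytometry into 4 libraries, 1 per group. Per the labels, the sort took lineage-negative cells with CD31, VE-cadherin and endomucin on their surface. Sca-1-positive cells formed the type H gate, named after a capillary type of bone, and Sca-1-negative cells the sinusoidal gate. The genotypes are given as ID1-/- ID3-/- for the knockout label, and as ID1+/+ ID3+/- for the control label in the design text, where sample titles say wild type. Both genotypes carried CDH5-CreER, a tamoxifen-dependent recombinase under the control of the VE-cadherin gene, and tamoxifen was injected on 5 days to delete Id1. That driver acts in vascular endothelium, and its activity in plasma cells was not measured here. How many mice each library holds is not stated in the labels, so no spread between animals could be computed.

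Plasma cells are the end stage of the B lineage and secrete antibody. Blimp-1, Xbp1 and Irf4 drive their differentiation, Xbp1 enlarges the endoplasmic reticulum (ER), and long-lived plasma cells lodge in bone marrow. Antibody chains enter the ER through the Sec61 channel, are glycosylated and folded there, and leave in COPII vesicles, while misfolded chains are sent back for degradation. Id1 and Id3 bind E proteins, transcription factors that B lineage cells use, and keep them from DNA.

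Plasma cells made up 8.67% of the cells labelled knockout (161 of 1857, exact Clopper-Pearson 95% interval 7.43 to 10.0) and 13.4% of the cells labelled control (108 of 806, 11.1 to 15.95). They were nearly confined to the Sca-1-positive gate. The sinusoidal library labelled knockout held 0 of 553, where 3 counts, the limit taken for a count of 0, would be 0.542%, while the sinusoidal library labelled control held 2 of 351 (0.570%). All intervals cover counting error only. The share labelled control depended on the filter on mitochondrial transcripts (under 10% of UMIs). The barcodes it left out included 3 with at least 2% Jchain in the library labelled knockout and 22 in the library labelled control, and with no filter the shares were 8.74% and 15.5%. No barcode shared between libraries was a plasma cell.

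Plasma cells labelled knockout had a median of 7484 UMIs and 2104 genes per cell, against 7103.5 UMIs and 1894 genes in plasma cells labelled control. The other cells of the same libraries had medians of 5446.5 UMIs in the library labelled knockout and 6340 in the library labelled control. Library totals were 11065352 and 5703108 UMIs in the same order. Plasma cells carried 11.6% of the UMIs of the library labelled knockout and 14.1% of those of the library labelled control. Their sums therefore rest on 1273050 and 793627 UMIs, 1 sum per label.

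The Jchain share chose the cells and is given as a description. Its median was 12.1% in plasma cells labelled knockout (quartiles 8.07% and 18.5%, range 2.17% to 44.9%) and 19.6% in plasma cells labelled control (quartiles 13.0% and 26.5%, range 2.60% to 36.9%). In the library labelled knockout the 3 cells just inside the threshold held 2.16%, 2.26% and 2.29%, and the 3 just outside held 1.94%, 1.81% and 1.79%. In the library labelled control the 3 just inside held 2.60%, 5.96% and 6.05%, and the 3 just outside held 0.400%, 0.238% and 0.214%. The border was thus crossed by a thin tail of cells in the library labelled knockout, where 10 cells lay between 0.5% and 2%, and was empty in the library labelled control, where none did. Low Jchain counts were present almost everywhere. Of the other cells, 87.4% labelled knockout and 92.8% labelled control had at least 1 Jchain UMI. The median Jchain share of the other cells was 0.0441% and 0.0449% in the same order. Whether these low counts are background was not tested.

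**Figure D1:**
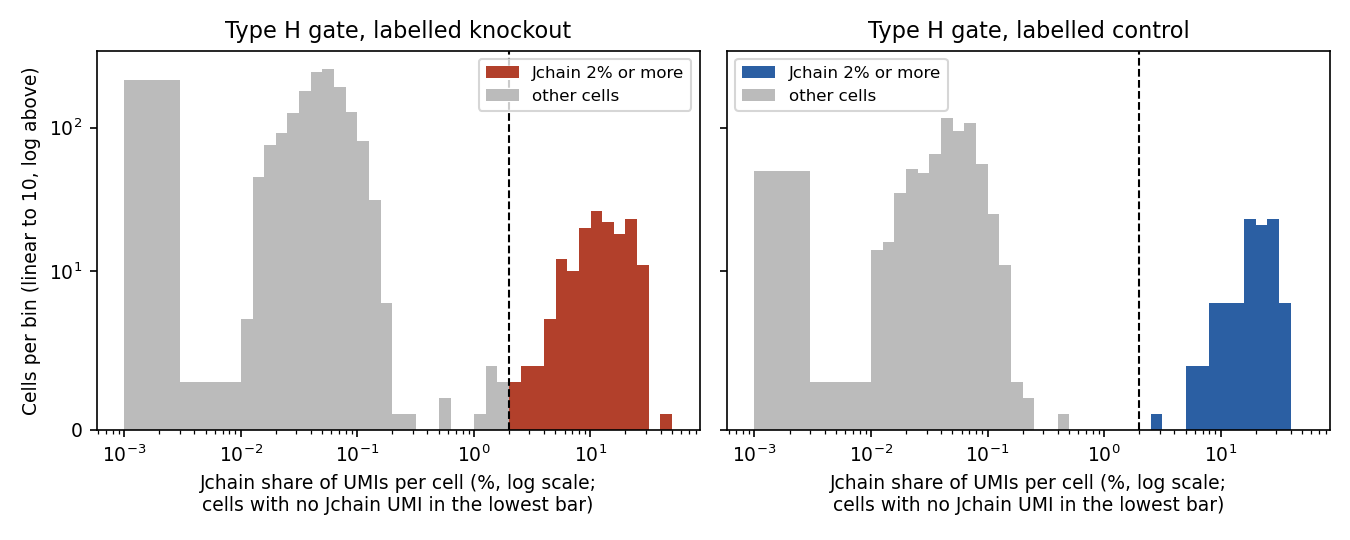
Number of cells (vertical axis, linear up to 10 and logarithmic above) by Jchain share of a cell's UMIs (horizontal axis, log scale), for the type H libraries labelled knockout (left) and labelled control (right). The dashed line is the 2% threshold, and coloured bars are the 161 and 108 plasma cells. Grey bars are the other cells, most of them near 0.04%, and cells with no Jchain UMI are drawn in the leftmost bar.

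The cell type label was compared with its markers, of which Jchain is present in every plasma cell by the rule. The other markers Mzb1, Derl3 and Sdc1 were all detected in 136 of 161 plasma cells labelled knockout (84.5%) and 95 of 108 labelled control (88.0%), while they were all detected together with Jchain in 0.413% and 0% of the other cells of those libraries. At least 6 of 8 plasma cell markers, Jchain among them, were seen in 92.6% of plasma cells labelled knockout and 86.1% labelled control, against 0.295% and 0.143% of the other cells. Levels are given below as counts per 1000000 UMIs (CPM) of a summed group, Jchain left out, so that a larger Jchain share does not lower every other gene. Mzb1, an ER chaperone for immunoglobulin, stood at 4482 CPM in plasma cells labelled knockout and 7128 CPM in plasma cells labelled control, against 78.0 and 33.9 CPM in the other cells. Derl3, an ER degradation factor, stood at 799 and 1136 CPM, against 7.70 and 2.27 CPM. Sdc1, the syndecan CD138, stood at 536 and 637 CPM, against 17.3 and 18.6 CPM. After thinning every cell to 2000 UMIs, Mzb1 was seen in 96.3% of plasma cells labelled knockout and 99.1% labelled control. Derl3 was then seen in 76.4% and 76.4%, and Sdc1 in 60.9% and 72.6%. Joint detection depended on depth. Thinned, all 4 markers were seen in 45.3% and 54.7% of plasma cells, against 0.124% and 0% of other cells. At least 6 of 8 markers were seen in 32.3% and 37.7%, against 0.0622% and 0%.

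The antibody classes of these cells could not be given. The gene table of the files used here lists 27998 genes, and its symbols beginning Igh, Igk or Igl are Igll1, Iglon5 and Ighmbp2, none of which is an antibody heavy or light chain gene. Heavy and light chain constant genes were therefore not analysed here.

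Genes were compared between plasma cells and all other cells of the same library, which are mostly blood progenitors. Because Jchain of the same cells set the groups, this is a description with no test. Among 10166 genes with at least 50 UMIs in the library labelled knockout, 9.7% were at least 2-fold higher and 29.5% at least 2-fold lower in plasma cells. In the library labelled control these shares were 9.41% and 31.8% of 8529 genes. In both libraries together 7.37% were higher and 22.1% lower, of 8519 genes. The median log2 ratio over all genes was -0.43 in the library labelled knockout and -0.47 in the library labelled control, and became -0.63 and -0.78 when scaled to all UMIs, so ratios are best read against that shift.

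The genes that led plasma cells in both libraries were partly secreted and surface proteins. Prg2, known as major basic protein of eosinophil granules, stood at 1630 CPM in plasma cells labelled knockout and 3824 CPM labelled control, against 9.85 and 21.7 CPM in other cells. Slpi, a secreted protease inhibitor, stood at 9202 and 12360 CPM, against 73.4 and 86.5 CPM. Tnfrsf17, the BCMA receptor for the survival factor APRIL, stood at 407 and 444 CPM, against 3.28 and 1.86 CPM. Slamf7, a surface receptor of plasma cells, stood at 351 and 339 CPM, against 2.77 and 1.86 CPM. The others of the 12 leading genes were Derl3, Eaf2, a cofactor of transcription elongation, Vpreb3, a B lineage protein related to surrogate light chain, Ccr10, Ly6k, Oosp1, Tspan15 and Kcnmb4os2. The 6 genes lowest in plasma cells were Mpo, C1rl, Meg3, Triqk, Gm16152 and Sox4, of which Sox4, a progenitor transcription factor, stood at 10.8 and 12.5 CPM, against 358 and 355 CPM in other cells. Igll1, a surrogate light chain, was too sparse in the library labelled control for the 50-UMI minimum. It stood at 65.8 CPM in plasma cells labelled knockout and 46.9 CPM labelled control, against 0.103 and 0.207 CPM in other cells, a pair of values chosen after they were seen. The gene table lists no antibody light chain genes, and whether their reads were counted as Igll1 was not tested.

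The transcription factors of the plasma cell state were high with both labels. Of 11 measured regulators, 8 were at least 2-fold higher in both libraries and none was lower, against 7.37% and 22.1% of all genes. Xbp1 stood at 3163 CPM in plasma cells labelled knockout and 3669 CPM labelled control, against 117 and 123 CPM in other cells. Prdm1, which encodes Blimp-1, stood at 95.5 and 89.0 CPM, against 2.05 and 0.207 CPM. Irf4 stood at 160 and 114 CPM, against 3.69 and 1.03 CPM. Pou2af1, the B lineage coactivator OBF-1, stood at 653 and 564 CPM, against 9.34 and 3.51 CPM. Zbtb20, Ikzf1 and Pou2f2 were the 3 that did not reach 2-fold in both libraries.

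Of 12 measured B cell genes, 5 were at least 2-fold higher in both libraries and 2 lower, against 7.37% and 22.1% of all genes. Cd79a, the signalling chain of the B cell receptor, stood at 1451 CPM in plasma cells labelled knockout and 2215 CPM labelled control, against 42.6 and 26.6 CPM in other cells. Cd74, the invariant chain of MHC class II, stood at 10680 and 8184 CPM, against 728 and 718 CPM. Its partner H2-Aa stood at 194 and 78.1 CPM in plasma cells, against 263 and 297 CPM in other cells. Bcl11a, a factor of B cell development, had log2 ratios of -3.24 and -4.84.

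The antigens used for sorting were unevenly represented. Ly6a, which encodes Sca-1, stood at 3520 CPM in plasma cells labelled knockout and 4329 CPM labelled control, against 392 and 415 CPM in other cells, and was detected in 99.4% and 100% of plasma cells. Reads of Ly6 family genes can be split between near-identical copies, which was not tested. Pecam1, which encodes CD31, stood at 44.2 and 60.9 CPM, against 42.2 and 40.3 CPM in other cells. Cdh5, the VE-cadherin gene, had 0 UMIs in plasma cells labelled knockout and 2 in those labelled control. Emcn, the endomucin gene, had 5 and 0 UMIs, or 4.51 and 0 CPM, against 47.8 and 49.4 CPM in other cells. The summed level of 6 endothelial markers was 0 CPM in plasma cells labelled knockout, with all 6 at 0, and 4.69 CPM labelled control, with 4 at 0. In the other cells the sum was also low, at 4.5 CPM labelled knockout and 6.8 CPM labelled control, so it does not set plasma cells apart. The plasma cells thus showed a transcript of CD31 and much of Sca-1, but next to none of VE-cadherin and endomucin.

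Genes of the secretory route were higher in plasma cells at each of its steps. The counts given for each step stand beside 7.37% higher and 22.1% lower in both libraries among all genes. Of 23 measured genes of ER entry (Sec61, signal peptidase and their partners), 17 were at least 2-fold higher in plasma cells of both libraries and none was lower. Their median log2 ratios were 1.73 in the library labelled knockout and 1.81 in the library labelled control. Among those under 2-fold was Srp68, a core subunit of the signal recognition particle, at 0.66 and 0.39 log2 units. The signal peptidase subunit Sec11c stood at 2234 CPM in plasma cells labelled knockout and 2768 CPM labelled control, against 191 and 204 CPM in other cells, while its paralog Sec11a differed by 0.49 and 0.21 log2 units. Ssr4, part of the translocon, stood at 2912 and 3596 CPM, against 292 and 313 CPM. Tram2, another translocon protein, had the largest ratios of this group, at 4.40 and 5.15 log2 units.

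Of 22 genes of glycosylation, 16 were higher in both libraries and none lower, with median log2 ratios of 1.54 labelled knockout and 1.56 labelled control. St6gal1, the sialyltransferase of B lineage glycoproteins, stood out at 205 CPM in plasma cells labelled knockout and 367 CPM labelled control, against 5.23 and 3.10 CPM in other cells. Subunits of the oligosaccharyltransferase such as Dad1 had smaller ratios, at 1.93 and 2.02 log2 units. Mogs, a glucosidase, was below the other cells in each library, at -1.05 log2 units labelled knockout and -0.59 labelled control.

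Of the secretory groups, folding had the highest medians. Of 29 genes, 26 were at least 2-fold higher in both libraries and none was lower, with median log2 ratios of 3.19 labelled knockout and 2.97 labelled control. Hspa5, the chaperone BiP, stood at 1407 CPM in plasma cells labelled knockout and 1531 CPM labelled control, against 186 and 207 CPM in other cells. Hsp90b1, the chaperone GRP94, stood at 2217 and 2849 CPM, against 145 and 151 CPM. Txndc5, a disulfide isomerase, stood at 4190 and 3557 CPM, against 81.5 and 74.1 CPM. The 3 that missed 2-fold were Canx, Pdia5 and Sep15.

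Of 17 genes of ER-associated degradation, 13 were higher in both libraries and none lower, with median log2 ratios of 2.35 labelled knockout and 2.94 labelled control. Edem1, which picks out misfolded glycoproteins, stood at 1389 CPM in plasma cells labelled knockout and 1732 CPM labelled control, against 24.6 and 16.9 CPM in other cells. Herpud1 stood at 2040 and 1868 CPM, against 82.1 and 80.5 CPM. The general extraction machinery had smaller ratios, with Vcp at 1.16 and 0.76 log2 units and Ufd1l at 0.38 and 0.45. Of 24 genes of transport between ER and Golgi, 20 were higher in both libraries, with median log2 ratios of 1.63 labelled knockout and 1.46 labelled control. Sec24d, a cargo adaptor of COPII, was at 3.11 and 3.22 log2 units. Of 11 genes of the ER stress response, 3 were higher in both libraries and 2 lower, against 7.37% and 22.1% of all genes.

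Other supply lines had smaller ratios. Of 12 genes of amino acid supply, 4 were higher in both libraries, among them Slc3a2, the heavy chain of amino acid exchangers, at 2108 CPM in plasma cells labelled knockout and 1565 CPM labelled control, against 220 and 191 CPM in other cells. Of 11 genes of autophagy and lysosomes 5 were higher, and of 14 genes of oxidative phosphorylation 2 were. Among all genes 7.37% were higher in both libraries, beside which 2 of 14 is no clear excess. Hspa8, a cytosolic chaperone, was lower, at 1074 and 1033 CPM in plasma cells, against 2068 and 2157 CPM in other cells.

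Of 17 survival and surface genes, 7 were higher in both libraries and Cd27 was lower. Mcl1, a survival factor of plasma cells, stood at 316 CPM in plasma cells labelled knockout and 250 CPM labelled control, against 140 and 119 CPM in other cells. Of 11 homing genes, 3 were higher in both libraries (Ccr10, Itgal and Selplg) and 3 lower, among them S1pr1 and S1pr4, receptors of the egress signal sphingosine 1-phosphate. These counts stand beside 7.37% higher and 22.1% lower among all genes. Cxcr4, the receptor for the marrow chemokine CXCL12, was sparse at 20.7 and 18.7 CPM, against 16.9 and 10.3 CPM in other cells.

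Few plasma cells carried cell cycle transcripts. At least 3 of 9 cycling genes were seen in 6 plasma cells labelled knockout (3.73%, 1.38 to 7.93) and 2 labelled control (1.85%, 0.225 to 6.53), against 8.08% and 7.31% of other cells. After thinning to 2000 UMIs these shares were 1.86% and 0% in plasma cells and 6.53% and 6.14% in other cells. Of 19 proliferation genes, 15 were at least 2-fold lower in plasma cells of both libraries, against 22.1% of all genes. All 8 progenitor markers and all 8 myeloid markers were lower in both as well.

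**Figure D2:**
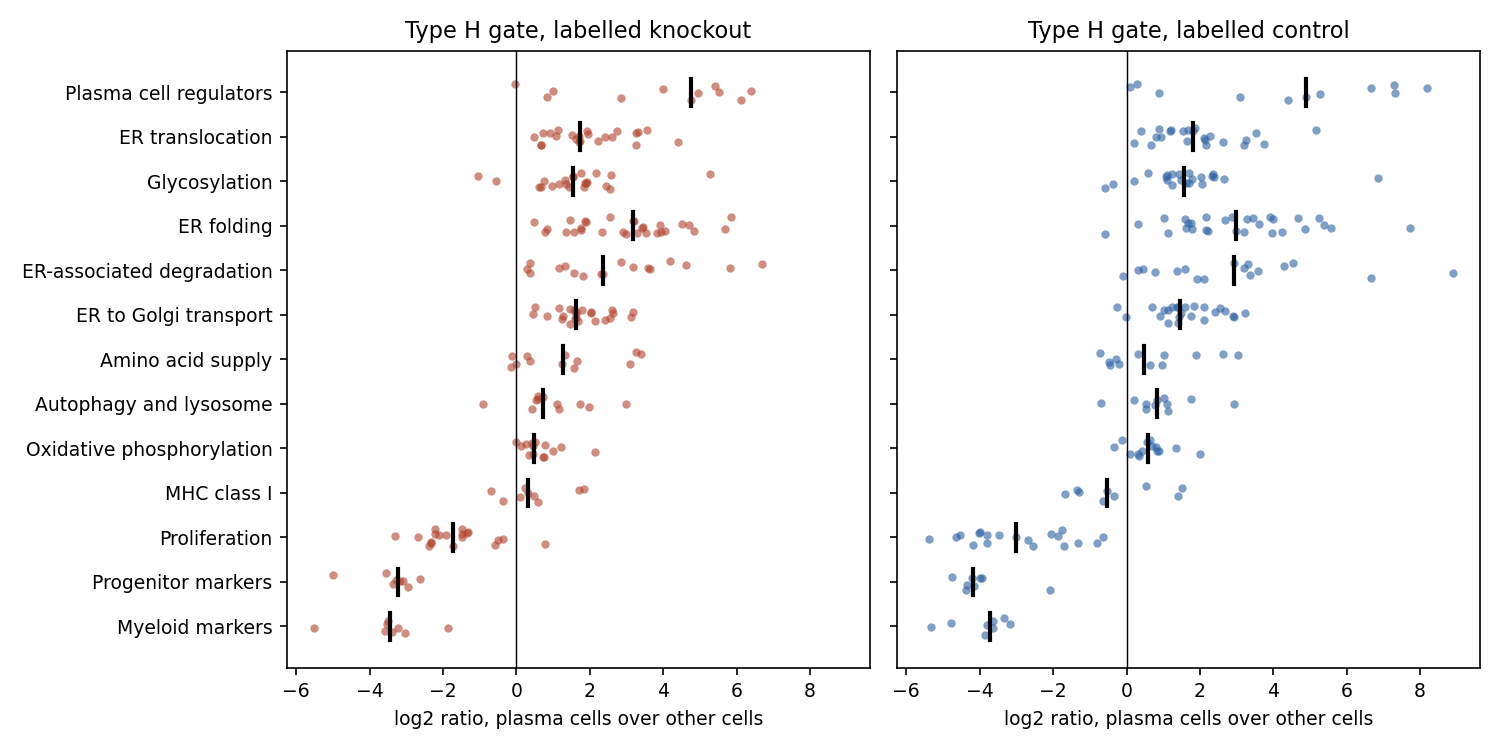
Log2 ratio of CPM in plasma cells over other cells (horizontal axis) for each gene of 13 lists with at least 50 UMIs, in the type H libraries labelled knockout (left) and labelled control (right). Each point is a gene and each black bar the median of its list. Folding genes have medians of 3.19 and 2.97, and progenitor and myeloid markers lie below 0 in both libraries.

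Promoter sequences were searched because folding and degradation genes were both higher in plasma cells. The ER stress response element (ERSE) is known to bind NF-Y together with ATF6 or Xbp1. It was searched as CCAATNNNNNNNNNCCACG on both strands, from 250 bases before to 50 after each annotated start, in RefSeq promoters of GRCm38.p6. It was present in 0.137% of 27025 genes. Among folding genes 7 of 20 with a promoter held it (35.0%), and among degradation genes 2 of 13 (15.4%). None held it among genes of translocation (17), glycosylation (19), ER to Golgi transport (22), ER stress response (12) and plasma cell regulation (11). The 10 matches in 9 genes are given below, read in the direction that puts CCAAT first, with the fixed letters in capitals and the free bases in lower case.
Hspa5, chr2:34772025-34772043: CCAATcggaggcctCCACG
Hsp90b1, chr10:86705638-86705656: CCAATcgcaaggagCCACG
Hsp90b1, chr10:86705533-86705551: CCAATcgtgcctcaCCACG
Pdia6, chr12:17266491-17266509: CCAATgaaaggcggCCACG
Calr, chr8:84847075-84847093: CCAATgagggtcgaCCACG
Canx, chr11:50325800-50325818: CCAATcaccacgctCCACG
Dnajc3, chr14:118937827-118937845: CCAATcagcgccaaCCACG
Creld2, chr15:88819520-88819538: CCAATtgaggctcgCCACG
Derl3, chr10:75893242-75893260: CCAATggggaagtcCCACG
Syvn1, chr19:6046532-6046550: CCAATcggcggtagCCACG

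The match centres lay between -203 and -35 relative to the start of transcription. The 9 genes with a match had median log2 ratios of plasma cells over other cells of 3.43 labelled knockout and 3.30 labelled control, and the 24 folding and degradation genes with a promoter and no match had 3.18 and 3.19. The difference was not tested. Genes with a match ran from Canx, at 0.79 and 0.31 log2 units, to Derl3, at 6.69 and 8.90. A second element, searched as TGACGTGG, was present in 0.714% of all genes, in 2 of 20 folding genes, in 2 of 13 degradation genes and in 3 of 22 genes of ER to Golgi transport. A match is a description of letters and says nothing of binding in these cells.

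The 250 bases before the start are shown for Derl3, which has the highest ratio of the matched genes, and for Hspa5, the classic ERSE gene. Both are on the plus strand, and capitals mark the fixed letters of the element, which reads on the opposite strand in Derl3.
Derl3, chr10:75893148-75893397: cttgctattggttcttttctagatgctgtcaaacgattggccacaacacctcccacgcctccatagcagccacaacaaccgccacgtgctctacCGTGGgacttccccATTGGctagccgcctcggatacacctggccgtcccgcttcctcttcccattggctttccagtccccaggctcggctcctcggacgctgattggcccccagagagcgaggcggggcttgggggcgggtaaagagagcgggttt
Hspa5, chr2:34771840-34772089: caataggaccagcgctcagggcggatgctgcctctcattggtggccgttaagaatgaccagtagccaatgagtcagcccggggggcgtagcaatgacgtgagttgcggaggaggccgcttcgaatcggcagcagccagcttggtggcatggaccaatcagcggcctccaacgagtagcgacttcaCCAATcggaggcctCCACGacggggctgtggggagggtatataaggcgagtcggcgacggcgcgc

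Plasma cells differed among themselves along the Jchain share. They were divided into cells with 2% to under 10%, 10% to under 20%, and 20% or more Jchain, a split chosen after seeing the data. These ranges held 60, 66 and 35 cells labelled knockout (37.3%, 41.0% and 21.7%), and 17, 39 and 52 cells labelled control (15.7%, 36.1% and 48.1%). Median UMIs per cell were similar, between 7306.5 and 7588 labelled knockout and between 6668.5 and 7838 labelled control. Of 1641 genes with at least 30 UMIs, 44 (2.68%) were at least 2-fold higher in the highest than in the lowest range labelled knockout and 66 (4.02%) labelled control. Of these, 18 were shared, or 40.9% and 27.3% of the lists. At least 2-fold lower were 31 (1.89%) and 54 (3.29%), with 13 shared, or 41.9% and 24.1%.

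Cells with much Jchain had more transcripts of Ccr10, the receptor for mucosal chemokines, in each library. Its level was 10.7, 35.2 and 188 CPM from the lowest to the highest range labelled knockout, and 7.88, 46.6 and 231 CPM labelled control. In the lowest range its level rests on 5 UMIs labelled knockout and 1 UMI labelled control. Vpreb3 stood at 107, 181 and 703 CPM labelled knockout, and at 173, 486 and 844 CPM labelled control. Glipr1, a secreted or membrane CAP family protein, stood at 164, 355 and 987 CPM labelled knockout, and at 268, 695 and 1157 CPM labelled control. These 3 genes were lowest in the lowest range and highest in the highest range with both labels. Cd79a stood at 910, 1422 and 2881 CPM labelled knockout, and at 867, 1904 and 3197 CPM labelled control. Nrip1, Trp53inp1, Lat2, Cd69, Hn1 and Bst2 were at least 2-fold higher in the highest than in the lowest range of each library too.

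Other transcripts had the opposite order. Chst1, a carbohydrate sulfotransferase, stood at 418, 332 and 42.9 CPM from the lowest to the highest range labelled knockout, and at 544, 190 and 19.5 CPM labelled control. Ly6c2 stood at 5063, 4093 and 1164 CPM labelled knockout, and at 7445, 2673 and 348 CPM labelled control. Ccnd2, a D cyclin, stood at 616, 383 and 161 CPM labelled knockout, and at 1221, 291 and 50.8 CPM labelled control. Ggh, Pon3, H2-Q7, Epcam, Oosp1, Grn and Ptpn6 shared this direction. Il10, an immunoregulatory cytokine chosen after its values were seen, stood at 68.2, 63.9 and 0 CPM labelled knockout, and at 55.2, 7.77 and 0 CPM labelled control. These levels rest on few counts, at 32, 29 and 0 UMIs labelled knockout and 7, 2 and 0 UMIs labelled control. The genes named along the Jchain share, other than Il10, were picked for differing at least 2-fold in both libraries, so their like direction is no separate result.

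Sums of the secretory lists changed little along the Jchain share, while single genes moved in both directions. For the highest over the lowest range, Derl3 had ratios of 1.716 labelled knockout and 1.355 labelled control. In the same order Mzb1 had ratios of 1.40 and 1.29, and Txndc5 of 1.40 and 1.61. Hspa5 went the other way, with ratios of 0.829 and 0.645. Summed over the folding list the level was 26500, 26340 and 28170 CPM labelled knockout, and 29470, 34030 and 29170 CPM labelled control. For ER entry it was 15730, 16780 and 19020 CPM, and 16480, 18240 and 18800 CPM in the same order of labels. Xbp1 stood at 2729, 3452 and 3552 CPM labelled knockout, and at 3561, 3131 and 4264 CPM labelled control. The MHC class I list was lower in cells of more Jchain, at 21460, 19440 and 15590 CPM labelled knockout, and at 20640, 15020 and 14270 CPM labelled control.

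**Figure D3:**
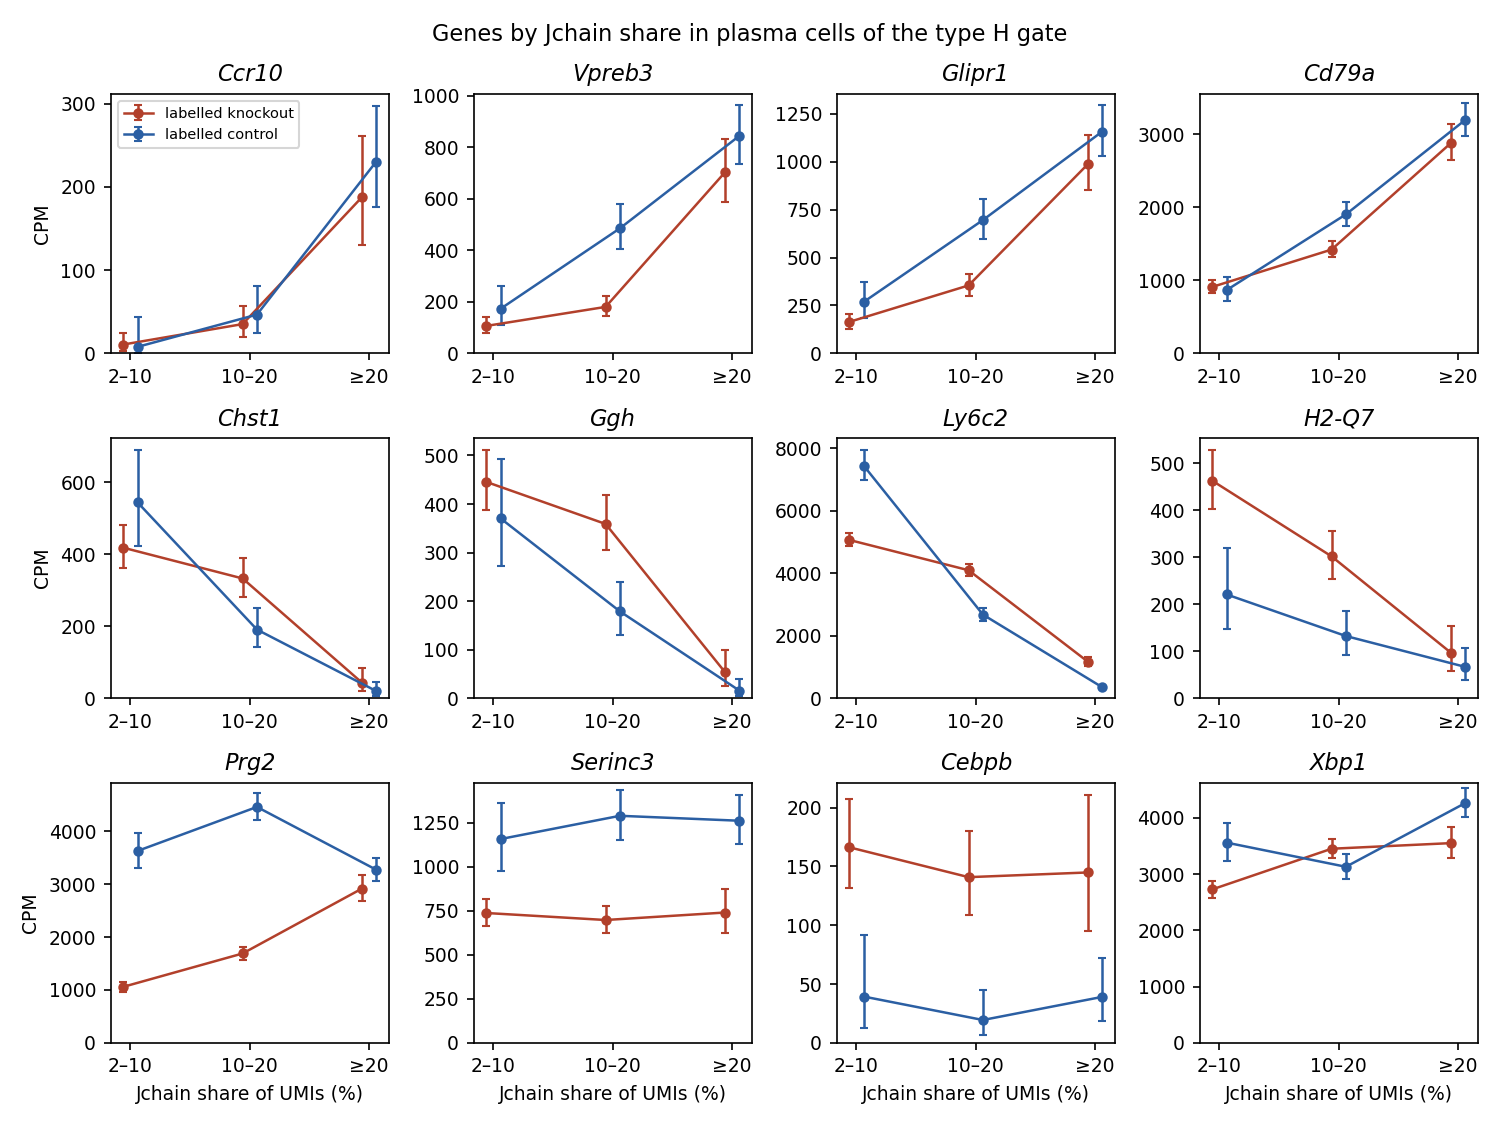
Level in CPM of UMIs other than Jchain (vertical axes, each starting at 0) of 12 genes in plasma cells of 3 ranges of Jchain share (horizontal axes, percent of UMIs), with red points for the library labelled knockout and blue points for the library labelled control. Bars are exact Poisson 95% intervals and cover counting error only. Ccr10 is highest at 20% or more (188 and 231 CPM), Chst1 is lowest there (42.9 and 19.5 CPM), and Serinc3 and Cebpb differ between the labels in every range.

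Transcripts of single cells were set against each other for a few of these genes, with the caveat that detection depends on depth. In the library labelled knockout, 20 of the 30 plasma cells with Ccr10 UMIs also had Vpreb3, which was seen in 80 of 161 cells. In the library labelled control, 39 of 41 had it, against 92 of 108 cells. Il10 was seen with Ccr10 in 4 cells labelled knockout, of 37 with Il10 and 30 with Ccr10, and in 1 cell labelled control, of 8 with Il10 and 41 with Ccr10. Hsd11b1, which makes active glucocorticoid, was seen in 26 of the 37 cells with Il10 labelled knockout and in 2 of 8 labelled control. Slamf9, a SLAM family receptor, was seen in 25 of 37 and 5 of 8. Each of these genes was present in under 4% of other cells.

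The last comparison was between plasma cells of the libraries labelled knockout and control. With 1 library per label it has no test, and a ratio with its counting interval compares these libraries, not the genotypes. Of the targeted genes, Id3 was higher labelled knockout. It had 23 UMIs (20.7 CPM) in plasma cells labelled knockout and 2 UMIs (3.12 CPM) in plasma cells labelled control, a ratio of 6.64 (1.64 to 58.1). In the other cells it stood at 93.7 CPM labelled knockout and 38.0 CPM labelled control. Id1 had 5 and 0 UMIs in plasma cells, and in other cells it stood at 2.87 CPM labelled knockout and 4.75 CPM labelled control, a ratio of 0.605 (0.336 to 1.10). Which part of either gene was deleted is not stated in the labels, and tags from the end of a transcript can remain in a null allele, so these counts do not check the labels. The wording "labelled knockout" and "labelled control" is kept for that reason.

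Several properties differed between the sets of plasma cells along with the label. The Jchain share was lower labelled knockout, as given above. Xist alone was seen in 20 plasma cells labelled knockout and 33 labelled control, and Y-linked genes alone in 76 and 42, so each library held cells of both sexes in unequal parts. Both were seen in 5 and 6 cells. At least 3 of 8 progenitor markers were seen in 12 plasma cells labelled knockout and 1 labelled control. Summed levels of markers of other cells in plasma cells were 133 CPM labelled knockout and 84.4 CPM labelled control for 8 progenitor markers, with none of the 8 at 0 in either. They were 310 and 156 CPM for 8 myeloid markers, with 1 at 0 in each, 144 and 10.9 CPM for 4 T and NK cell markers, with 0 and 2 of them at 0, and 114 and 60.9 CPM for 5 erythroid markers, with 0 and 1 of them at 0. In the other cells the same sums were 1521 and 1535 CPM, 2305 and 2089 CPM, 124 and 139 CPM, and 1739 and 2049 CPM. Their part in the differences below was not tested, except where a value without such cells is given.

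Among 3898 genes with at least 50 UMIs in plasma cells, 297 (7.62%) were at least 1.5-fold higher labelled knockout and 172 (4.41%) at least 1.5-fold lower. In the other cells 3.08% and 2.11% of 10634 genes passed the same sizes. Plasma cell sums hold fewer UMIs, so their counting intervals are wider. The median log2 ratio over all genes was 0.018 in plasma cells and -0.044 in other cells. Scaled to all UMIs, Jchain included, the median in plasma cells was 0.13 and the lower genes numbered 91.

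Genes of the secretory steps differed little between the labels in their list medians. Of 23 genes of ER entry and 24 of ER to Golgi transport none passed 1.5-fold, of 28 folding genes 1 did (Mzb1, lower), of 17 degradation genes 1 (Edem3, lower) and of 21 glycosylation genes 1 (St6gal1, lower). Among all 3898 genes 7.62% passed upward and 4.41% downward, so counts this small in short lists are no result by themselves. Their median log2 ratios were 0.002 for ER entry, -0.023 for ER to Golgi transport, -0.16 for folding, -0.004 for degradation and -0.036 for glycosylation. Genes of the ER stress response were apart from these. Of 10 measured, 4 passed 1.5-fold upward and none downward, with a median log2 ratio of 0.33. In the other cells 1 of 12 passed upward, with a median of 0.17. Atf3 had the largest ratio of the list in both kinds of cell, and it also belongs to the immediate-early genes given below. Mzb1 had a ratio of 0.629 (0.604 to 0.655), and within the 3 Jchain ranges it stood at 4241, 4128 and 5950 CPM labelled knockout and at 5547, 7871 and 7165 CPM labelled control. Hspa5 had a ratio of 0.919 (0.848 to 0.996) and Xbp1 of 0.862 (0.818 to 0.909). Amino acid supply was slightly higher labelled knockout, with a median log2 ratio of 0.43 over 11 genes in plasma cells against -0.15 over 12 genes in other cells, and 3 genes past 1.5-fold (Slc7a5, Slc38a2 and Psat1). The sum of this list was also lower in cells of more Jchain. From the lowest to the highest range it was 4311, 3239 and 2860 CPM labelled knockout, and 3230, 2875 and 2271 CPM labelled control. It was thus higher labelled knockout in each range.

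Genes of MHC class I, which present peptides to T cells, were higher in plasma cells labelled knockout. Of 9 genes, 6 passed 1.5-fold upward and none downward, with a median log2 ratio of 0.81. In the other cells of the same libraries 1 of 9 passed upward, with a median of -0.098. Among all genes 7.62% passed upward in plasma cells and 3.08% in other cells. H2-K1 stood at 1722 CPM in plasma cells labelled knockout and 978 CPM labelled control, a ratio of 1.76 (1.61 to 1.93), and had a ratio of 0.871 in other cells. H2-D1 stood at 2241 and 1475 CPM, a ratio of 1.52 (1.41 to 1.64), against 0.955 in other cells. H2-Q7 stood at 335 and 123 CPM, a ratio of 2.72 (2.13 to 3.51), against 0.935 in other cells. B2m, the light chain of class I molecules, had a ratio of 1.15 (1.12 to 1.18) and Tapbp, which helps load peptides, of 1.05 (0.901 to 1.24), both under 1.5-fold. Class I genes share long stretches of sequence, so how reads were split among H2-Q4, H2-Q6, H2-Q7, H2-K1 and H2-D1 is uncertain.

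The class I genes differed in how they compared within the Jchain ranges. The sum of the list was 21460 CPM labelled knockout and 20640 CPM labelled control in the lowest range, 19440 and 15020 CPM in the middle range, and 15590 and 14270 CPM in the highest. B2m stood at 15390, 14370 and 12200 CPM labelled knockout, and at 16140, 11760 and 11510 CPM labelled control, so it was lower labelled knockout in the lowest range. H2-K1 stood at 2023, 1623 and 1207 CPM from the lowest to the highest range labelled knockout, and at 1418, 882 and 856 CPM labelled control. H2-Q7 stood at 463, 302 and 96.6 CPM, and at 221, 132 and 66.5 CPM, with overlapping intervals in the highest range. H2-K1 was compared within each sex as well. In Xist-positive plasma cells H2-K1 stood at 2190 CPM labelled knockout and 1044 CPM labelled control, and in Y-positive plasma cells at 1725 and 908 CPM. Of 6 interferon-induced genes measured in plasma cells none passed 1.5-fold, against 7.62% of all genes upward and 4.41% downward, and their median log2 ratio was -0.025.

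Immediate-early genes, which respond within minutes to stimuli, were higher labelled knockout in plasma cells and in other cells. Of 16 such genes in plasma cells 8 passed 1.5-fold upward, against 7.62% of all genes. Of 17 in other cells 8 did, against 3.08% of all genes. Jund stood at 2625 CPM in plasma cells labelled knockout and 1236 CPM labelled control, a ratio of 2.13 (1.96 to 2.30), against 2.08 in other cells. Cebpb, a bZIP transcription factor, stood at 152 and 31.2 CPM, a ratio of 4.88 (3.06 to 8.18), against 4.51 in other cells. Atf3, a stress-induced factor, stood at 48.7 and 9.37 CPM, a ratio of 5.19, against 3.14 in other cells. Jund and Cebpb thus had like ratios in both kinds of cell.

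The remaining genes higher labelled knockout are given with their ratios in other cells. Hsd11b1 stood at 129 CPM in plasma cells labelled knockout and 37.5 CPM labelled control, a ratio of 3.44 (2.22 to 5.54). It was seen in 43.5% and 17.6% of plasma cells and in 2.30% and 3.01% of other cells. Its ratio in other cells was 0.529, and in the range of 20% or more Jchain it stood at 26.8 and 31.3 CPM. Phlda1 stood at 123 and 28.1 CPM, a ratio of 4.36 (2.66 to 7.58), against 1.61 in other cells. Spon1, the matrix protein F-spondin, stood at 44.2 and 4.69 CPM, a ratio of 9.42 (3.04 to 47.3) that rests on 49 and 3 UMIs. Lag3, an inhibitory receptor, stood at 42.4 and 7.81 CPM, a ratio of 5.42 (2.17 to 17.5), against 0.727 in other cells. Lag3 was seen in 16.2% of plasma cells labelled knockout and 4.63% labelled control, and in 10.8% and 14.6% of other cells.

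Some of these ratios rested on few cells or on transcripts richer outside plasma cells. Ccl5, a chemokine of T and NK cells, stood at 78.4 CPM labelled knockout and 9.37 CPM labelled control, and 3 cells held 83.9% of its UMIs labelled knockout. Without the 3 cells richest in it the levels were 12.8 and 1.62 CPM. Lyz2, a myeloid lysozyme, stood at 148 and 31.2 CPM in plasma cells, below the 536 and 460 CPM of other cells. Tsc22d1 stood at 132 and 39.1 CPM in plasma cells, below the 667 and 496 CPM of other cells. Il10 and Slamf9, chosen after their values were seen, stood at 55.0 and 14.1 CPM, and at 114 and 35.9 CPM. Ratios for these were 3.91 (1.93 to 8.96) and 3.16 (2.02 to 5.17).

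Genes lower in plasma cells labelled knockout were led by Prg2 and by genes of cells with much Jchain. Prg2 stood at 1630 CPM labelled knockout and 3824 CPM labelled control, a ratio of 0.426 (0.401 to 0.453), against 0.454 in other cells, where its level was below 1% of that in plasma cells. Within the Jchain ranges it stood at 1060, 1691 and 2919 CPM labelled knockout, and at 3632, 4464 and 3275 CPM labelled control. It was lower labelled knockout in every range, least so in the highest, where the intervals of the levels overlapped. Serinc3, a membrane protein, stood at 722 and 1253 CPM, a ratio of 0.576 (0.522 to 0.636), against 0.517 in other cells, and showed the difference in every Jchain range. Hmox1, heme oxygenase, stood at 28.8 and 92.2 CPM, a ratio of 0.313 (0.197 to 0.489), against 0.248 in other cells.

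Vpreb3 stood at 237 CPM labelled knockout and 567 CPM labelled control, a ratio of 0.418 (0.355 to 0.491). Glipr1 stood at 380 and 795 CPM, a ratio of 0.478 (0.419 to 0.545). Ccr10 stood at 50.5 and 113 CPM, a ratio of 0.449 (0.311 to 0.645). These 3 are among the 18 genes at least 2-fold higher with more Jchain in both libraries, and the labels differed in Jchain share. In the range of 20% or more, the levels were 703 and 844 CPM for Vpreb3, 987 and 1157 CPM for Glipr1, and 188 and 231 CPM for Ccr10. The intervals of the levels overlapped there for all 3 genes. In the middle range the levels were 181 and 486 CPM for Vpreb3 and 355 and 695 CPM for Glipr1, with intervals apart for both. For Ccr10 they were 35.2 and 46.6 CPM, with overlapping intervals. Ebf1, a B lineage transcription factor, stood at 31.5 and 95.3 CPM, a ratio of 0.331 (0.212 to 0.510), against 1.35 in other cells. Cdc14b, a phosphatase, stood at 17.1 and 53.1 CPM. Ccl3 and Ly6k rested on few cells. The 3 cells richest in each held 76.3% of Ccl3 UMIs and 81.6% of Ly6k UMIs labelled control, and without them Ly6k stood at 84.9 CPM labelled knockout and 59.9 CPM labelled control.

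**Figure D4:**
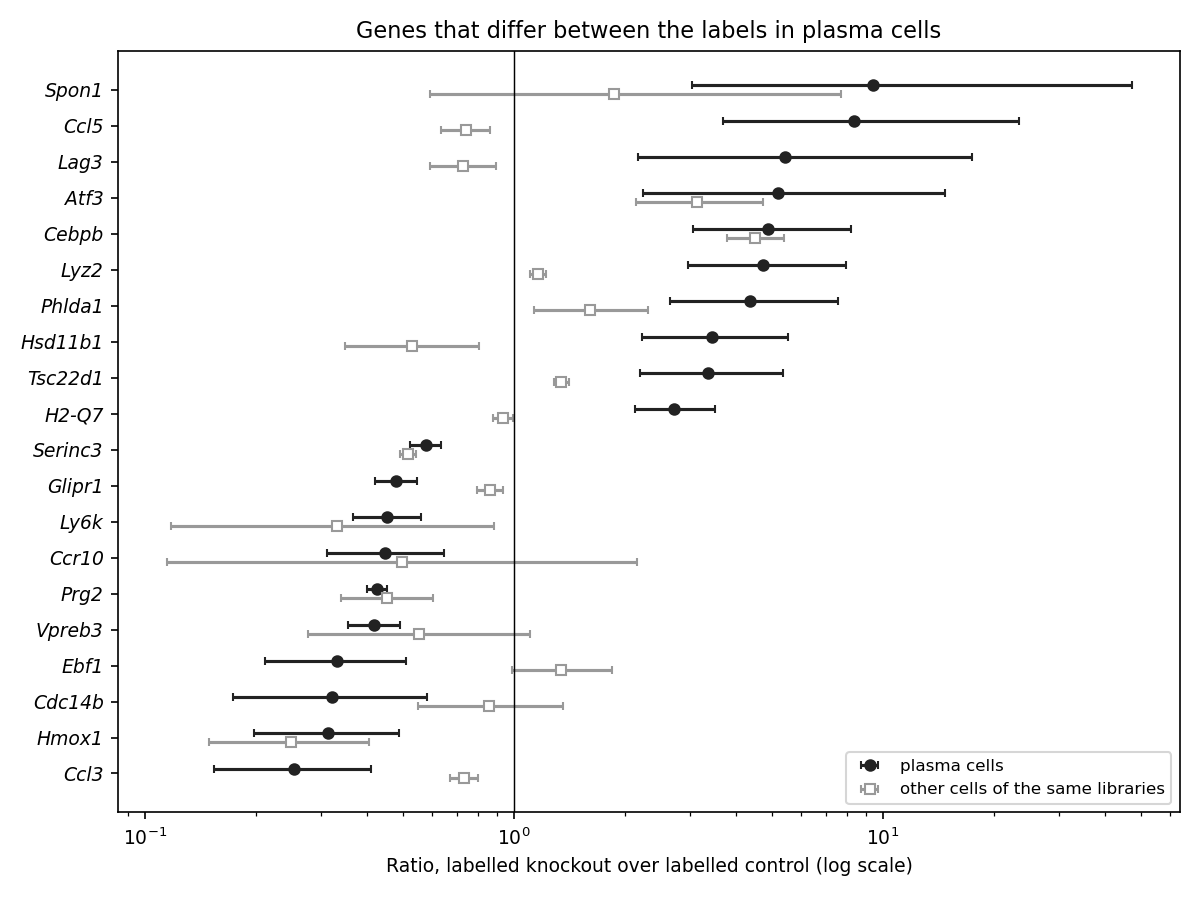
Ratio of CPM in the library labelled knockout over the library labelled control (horizontal axis, log scale) for the 20 genes named by size and counting interval, in plasma cells (filled circles) and in the other cells of the same libraries (open squares). Bars are exact 95% intervals conditional on the total and cover counting error only. Cebpb, Serinc3 and Hmox1 have like ratios in both kinds of cell, while H2-Q7 and Hsd11b1 lie above 1 in plasma cells and below 1 in other cells. Prg2 has like ratios too, but its level in other cells is a small trace of that in plasma cells. Whether that trace is background was not tested.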

How the data were processed

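Raw UMI counts for each gene in each called barcode were deposited, and values are whole numbers. Per the labels, cells were captured on 10x Genomics Chromium and sequenced with 26 and 57 cycles. Cell Ranger, Seurat and the build mm10 are named in the submitters' processing notes, without versions. Barcodes entered with 200 or more genes and mitochondrial transcripts under 10% of UMIs. Sums over cells were scaled to CPM of UMIs other than Jchain with Python 3.11.15, numpy 2.4.6, scipy 1.17.1 and pandas 2.3.3. Intervals are exact Poisson, Clopper-Pearson or conditional 95% intervals. Log2 ratios add 0.5 UMI to each sum, and genes needed 50 UMIs. Of symbols listed more than once, the entry with more UMIs was used. No doublet caller was run: alternatives leave out cells with Xist and Y-linked UMIs together, and plasma cells with 3 progenitor markers.

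With 1 library per group no test was possible and no p-value was made. The ratio and interval code was tested on simulated data. The members and the gene lists were chosen with earlier results of these data known. Named genes are up to 4 of highest CPM per list, the 12 highest and 6 lowest plasma over other ratios at 20 CPM or more, and up to 10 per direction between labels by the interval bound nearest 1, sex-linked genes left out. Other genes were chosen after their values were seen, among them those named along the Jchain share and the members of lists named beside their counts. The planned antibody class calls could not be made. Alternatives were other Jchain thresholds, cell filters, scalings, minimum UMIs, fold sizes, equal weight per cell and cells of each sex. The Jchain ranges and the removal of the 3 richest cells were added after seeing the data. Some listed genes are not reported here.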

Additional observations from a re-analysis of the deposited data

Results flagged for a closer look

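Hsd11b1 differed in direction between the kinds of cell. Its log2 ratio, labelled knockout over labelled control, was 1.76 in plasma cells and -0.92 in the other cells of the same libraries. The difference between these ratios was not tested.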

How the results depend on the processing

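With 1 library per label, the spread between animals and libraries is unknown, and depth limits what plasma cells show: 161 and 108 cells give few genes 50 UMIs. The strict cell filter (at least 500 genes, under 5% mitochondrial UMIs) gave a plasma cell share labelled control of 11.1%. Genes lower labelled knockout numbered 91 with scaling to all UMIs. Higher and lower genes between labels numbered 816 and 531 at a minimum of 20 UMIs, 116 and 59 at 100 UMIs, 78 and 29 at 2-fold, 72 and 91 in Xist-positive cells, and 179 and 97, 148 and 96, and 47 and 51 in the 3 Jchain ranges, low to high. At 3-fold, genes higher and lower in plasma than in other cells numbered 503 and 1719 labelled knockout, and 423 and 1641 labelled control. Without thinning, Mzb1 was seen in 99.4% and 100% of plasma cells, Derl3 in 91.9% and 96.3%, and Sdc1 in 92.5% and 91.7%. The direction turned for the median of 4 erythroid genes labelled knockout, plasma over other, at 1.44 under the strict filter, and for the proliferation median between labels at -0.075 in Y-positive cells. Among the 20 genes between labels it turned for Lyz2 (-0.0237) and Ccl3 (2.50) in Xist-positive cells, for Ccl3 (0.18) and Hsd11b1 (-0.17) in the lowest and highest Jchain range, and for Ly6k (0.49) without its 3 richest cells. The causes were not tested. All 20 kept their direction under the other 10 alternatives that recompute these ratios, and 14 stayed past 1.5-fold in the highest Jchain range. The antibody class alternative was not run. No paired analysis was possible because each label has 1 library.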
